A study of Mus musculus with 4 samples.

Results

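The beta-tubulin genes and the genes of neuronal microtubule-associated proteins described here are 10 of the 22084 genes counted in embryonic mouse forebrain. They were taken by gene name: the beta-tubulins Tubb2a, Tubb2b, Tubb3, Tubb4b, Tubb5 and Tubb6, the microtubule-associated proteins Map1b, Map2 and Mapt, and the stathmin Stmn2. All 10 passed the filter on low counts, which left 16252 genes for testing.

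Microtubules are hollow polymers of alpha- and beta-tubulin pairs that carry cargo in axons and dendrites and form the spindle of dividing cells. Each beta-tubulin gene encodes an isotype, and the isotypes differ most in the acidic tail at the end of the protein, where associated proteins and modifying enzymes bind. Structural microtubule-associated proteins stabilise the polymer, and stathmins bind free tubulin pairs and favour disassembly. In the developing cortex some of these genes are switched on strongly as progenitors become neurons, and mutations in several of the human beta-tubulin genes cause malformations of the cortex.

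The series concerns Tcf20, which encodes a chromatin-associated transcription cofactor, and its part in neurogenesis. There were 4 RNA-seq libraries, all from total RNA of strain B6D2F2 at the embryonic stage E13.5, and the labels do not say whether each came from 1 embryo or a pool. KO26F and KO23M had the genotype TCF20-/- and WT25F the genotype TCF20+/+. WT22M was titled as wild type while its genotype field gives TCF20+/-, so WT25F and WT22M are called carriers here, since both have at least 1 intact allele under either label. The titles name telencephalic tissue, the forebrain part that forms cortex and basal ganglia, and the extraction protocol names cerebral cortex. Neither the deleted part of the gene nor the litter of any library is named in the labels, so the p-values cover only the spread among these 4 samples, which may be technical in part.

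Depth was even, from 17791641 to 18509743 counts per library, and the 10 genes together held between 1.54% and 1.64% of all counts. Tcf20 itself stood at 98.6 (KO26F) and 104 CPM (KO23M) in the knockout-labelled arm and 118 (WT25F) and 111 CPM (WT22M) in the carrier arm, CPM being counts scaled to the library total; counts over the whole gene do not check the genotype labels. The dorsal telencephalon factor Emx1 lay between 107 and 140.0 CPM. Dlx2, a factor of the ventral telencephalon, stood at 253 (KO26F) and 277 CPM (KO23M) against 206 (WT25F) and 224 CPM (WT22M). It did not pass between the arms (edgeR). Markers of other tissue differed between libraries: 5 diencephalon markers summed to 85.6 CPM in WT25F and to between 28.7 and 33.0 in the others, and 5 choroid plexus markers to 191 CPM in WT22M and to between 766 and 983 in the others. Other lists differed by arm: 5 mesenchyme markers summed to 292 and 308 CPM in the knockout-labelled libraries and to 360 and 375 CPM in the carriers, and 6 endothelial and pericyte markers to 287 and 284 against 313 and 315 CPM. All 11 of these genes were on the lower side in the knockout-labelled arm and none passed on all 4 libraries (edgeR). Summed CPM was higher in both knockout-labelled libraries for 6 telencephalon markers (908 and 871 against 755 and 803). It was higher too for 4 intermediate progenitor markers (736 and 717 against 632 and 678). For 4 erythroid markers it was 145 and 144 against 126 and 73.2, and for 6 microglia markers lower, 75.7 and 80.0 against 84.9 and 99.3. No gene of these lists passed either (edgeR). The summed CPM of the radial glia, Cajal-Retzius and peripheral neuron markers overlapped between the arms. Of all single genes tested, 27.0% had arms that did not overlap, and no such share was computed for sums. The part of the marker differences in the values given here was not tested. The 9 markers of postmitotic neurons summed to between 2732 and 2846 CPM in all 4 libraries, and none of them passed the test between the arms in edgeR, DESeq2 or limma voom on all 4 libraries. Nhlh1, a transcription factor of new neurons, stood at 63.9 (KO26F), 89.6 (KO23M), 68.4 (WT25F) and 50.2 CPM (WT22M), so the arms overlapped. Its log2 difference was 0.37 (SE 0.23, edgeR) on all 4 libraries. Without KO26F the difference was 0.61 and without WT25F 0.59, each with a lone library left in an arm.

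The beta-tubulin genes are similar enough that short reads can match more than 1 of them, which bears on how each count is read. The last 75 coding bases, which encode the acidic tail, are shown because most of the isotypes differ there. They are printed from the GENCODE vM21 transcripts on the build GRCm38, stop codon included. Capitals mark bases that differ from Tubb2b, or have no counterpart in it, in an alignment of the whole coding sequences.

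Tubb2a, chr13:34074468-34074542, minus strand: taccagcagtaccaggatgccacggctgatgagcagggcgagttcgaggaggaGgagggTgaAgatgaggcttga
Tubb2b, chr13:34127471-34127545, minus strand: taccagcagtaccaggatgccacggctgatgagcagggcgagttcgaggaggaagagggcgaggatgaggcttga
Tubb3, chr8:123421608-123421682, plus strand: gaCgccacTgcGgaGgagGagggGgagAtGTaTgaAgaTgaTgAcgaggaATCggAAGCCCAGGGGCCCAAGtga
Tubb4b, chr2:25222308-25222382, minus strand: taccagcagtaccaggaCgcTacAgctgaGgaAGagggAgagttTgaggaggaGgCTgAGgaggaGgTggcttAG
Tubb5, chr17:35834982-35835056, minus strand: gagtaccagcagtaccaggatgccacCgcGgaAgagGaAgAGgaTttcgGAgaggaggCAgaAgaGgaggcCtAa

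In these stretches Tubb3, the neuron-specific isotype, had 34 capitals, Tubb4b 17, Tubb5 16 and Tubb2a 3. The 3 of Tubb2a leave the encoded amino acids the same as in Tubb2b. The Tubb3 coding sequence is longer (1353 bases against 1338 in Tubb2b), and bases without a counterpart in Tubb2b are among its capitals. Bases that the shorter Tubb5 (1335) lacks are not counted. Over the whole coding sequence of 1338 bases, Tubb2a and Tubb2b were 96.5% identical, with 47 differing positions. All other pairs among the 6 beta-tubulins lay between 80.2% and 85.7%. Tubb2a and Tubb2b are neighbours on the minus strand of chromosome 13, at 34074274 to 34078007 and 34126748 to 34130466. Their longest identical run was 551 bases, coding bases 610 to 1160, at chr13:34074646-34075196 and chr13:34127649-34128199. Among stretches of 60 coding bases within 1 exon, taken in codon steps ahead of the last 75, the one with the most differences was coding bases 64 to 123, with 8 differences, shown in capitals in both genes.

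Tubb2a, chr13:34076592-34076651, minus strand: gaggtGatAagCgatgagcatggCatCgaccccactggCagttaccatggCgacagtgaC
Tubb2b, chr13:34129289-34129348, minus strand: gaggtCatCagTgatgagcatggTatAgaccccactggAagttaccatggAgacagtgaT

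Cut into windows of 50 bases, 49.6% of the Tubb2a transcript's windows occurred identically in another annotated gene, and 45.6% of all its windows occurred in Tubb2b. For Tubb2b the share was 39.3% with any gene and 33.4% with Tubb2a. Tubb4b shared 55.5% of its windows with any gene and 43.6% with the processed pseudogene Tubb4b-ps1. Tubb5 shared 0.115% and Map2 0.274%, and Tubb3, Tubb6, Map1b, Mapt and Stmn2 shared none. Read length and the handling of multiply matching reads, not given in the sources used here, decide how such reads were assigned, so the separate values of Tubb2a, Tubb2b and Tubb4b are uncertain.

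**Figure D1:**
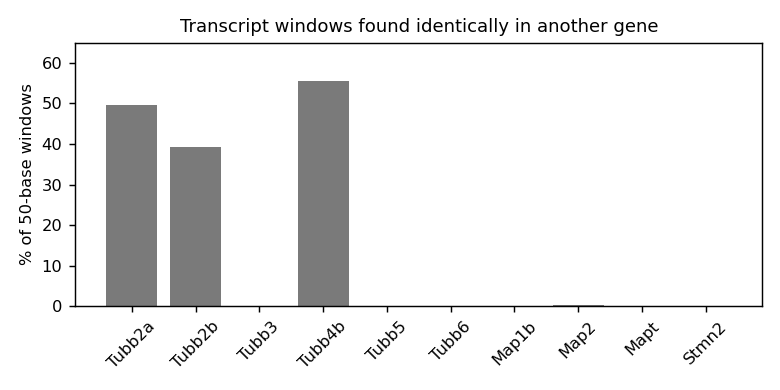
The vertical axis is the percentage of 50-base windows of each gene's transcript that occur identically in another annotated gene, for the 10 genes on the horizontal axis. Tubb2a (49.6%), Tubb2b (39.3%) and Tubb4b (55.5%) stand apart, and Map2 (0.274%) and Tubb5 (0.115%) are barely above 0.

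The pseudogenes that share these windows had few counts. Tubb2a-ps2, listed in the files as AC155241.2, had between 64 (WT25F) and 82 counts (KO26F) per library, and Tubb4b-ps1 between 43 (WT22M) and 58 (WT25F). On the opposite strand, exons of Gm10558 overlapped those of Map2 by 124 bases and exons of Fam166a those of Tubb4b by 121 bases, and the strand setting of the counting is not known here; Gm10558 had between 2 and 13 counts.

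Levels were compared between genes per kilobase of annotated exon. Tubb3 had the highest mean over the 4 libraries, 1647 CPM per kb (range 1541 to 1704), followed by Tubb5, an isotype of progenitors and neurons alike, at 1576 (1518 to 1629). Tubb2b, whose human counterpart is mutated in malformations of the cortex, followed at 1310 (1142 to 1407) and Tubb2a at 397 (289 to 468). The ranges of Tubb3 and Tubb5 overlapped, those of Tubb5 and Tubb2b did not. Taken per kilobase of 1 transcript, a length chosen after the values were seen, Tubb5 (1979 CPM per kb) lay above Tubb3 (1647), so the order of these isotypes depends on the exons counted.

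Among the associated proteins Stmn2, a stathmin of growing axons, stood at 138 CPM per kb (131 to 148) and Mapt, the axonal protein tau, at 122 (109 to 128). The widely used isotype gene Tubb4b stood at 133 (126 to 139), overlapping both. Map1b, a protein of growing axons, stood at 88.2 CPM per kb (81.2 to 95.5), and Map2, which marks dendrites, at 30.1 (27.5 to 32.3). The lowest was Tubb6, an isotype better known from tissues other than brain, at 7.48 (6.72 to 8.37). From Mapt downward, no range overlapped the next. These levels depend on the exons counted: per kilobase of 1 transcript, Mapt (674 CPM per kb) and Stmn2 (372) lay above Tubb4b (173), followed by Map1b (118), Map2 (79.0) and Tubb6 (10.4), so the order of Mapt, Stmn2 and Tubb4b is not settled.

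Set against the beta-tubulin total per kilobase, with the neuronal isotype gene Tubb4a added to the 6 members, the 2 leading genes kept close to 1 share. Tubb3 gave between 31.0% and 32.1% of the total and Tubb5 between 29.7% and 30.5%. Tubb2b gave 26.6% (KO26F) and 25.4% (KO23M) in the knockout-labelled arm and 22.4% (WT25F) and 25.7% (WT22M) in the carrier arm. Tubb2a gave 5.81% (KO26F) and 7.49% (KO23M), and 9.18% (WT25F) and 7.75% (WT22M), so Tubb2b had its highest and Tubb2a its lowest share in KO26F, and the reverse in WT25F. Tubb4a held between 3.04% and 3.40%, Tubb4b between 2.42% and 2.65% and Tubb6 between 0.131% and 0.156%.

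**Figure D2:**
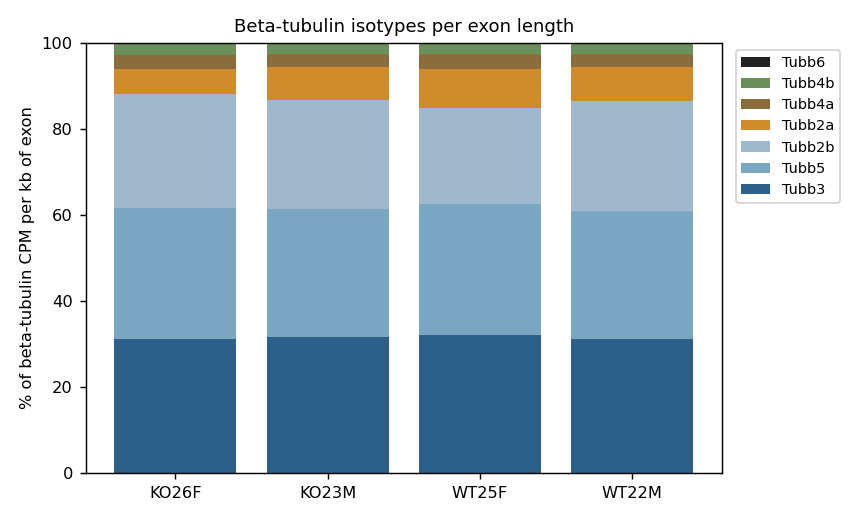
Stacked bars give the share of each of 7 beta-tubulin genes in their summed CPM per kilobase of exon (vertical axis, percent) for each library. Tubb3 and Tubb5 keep nearly the same share in all 4 bars, and the Tubb2a band is thinnest in KO26F (5.81%) and thickest in WT25F (9.18%).

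Comparing the knockout-labelled arm with the carrier arm, none of the 10 genes passed edgeR's quasi-likelihood test, in which 10 of all 16252 genes passed (0.0615%). No member had an unadjusted p under 0.05 either, against 464 of all genes, and DESeq2 (0.0615% of all genes called) and limma voom (0.0369%) also called none of the 10. The adjusted p was 0.9997 in edgeR for each of the 10. Their median log2 difference was -0.03, with 3 genes on the higher side and 7 on the lower, beside a median of 0.0020 over all genes tested. In bulk tissue, fewer cells of a type and less RNA per cell cannot be told apart.

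**Figure D3:**
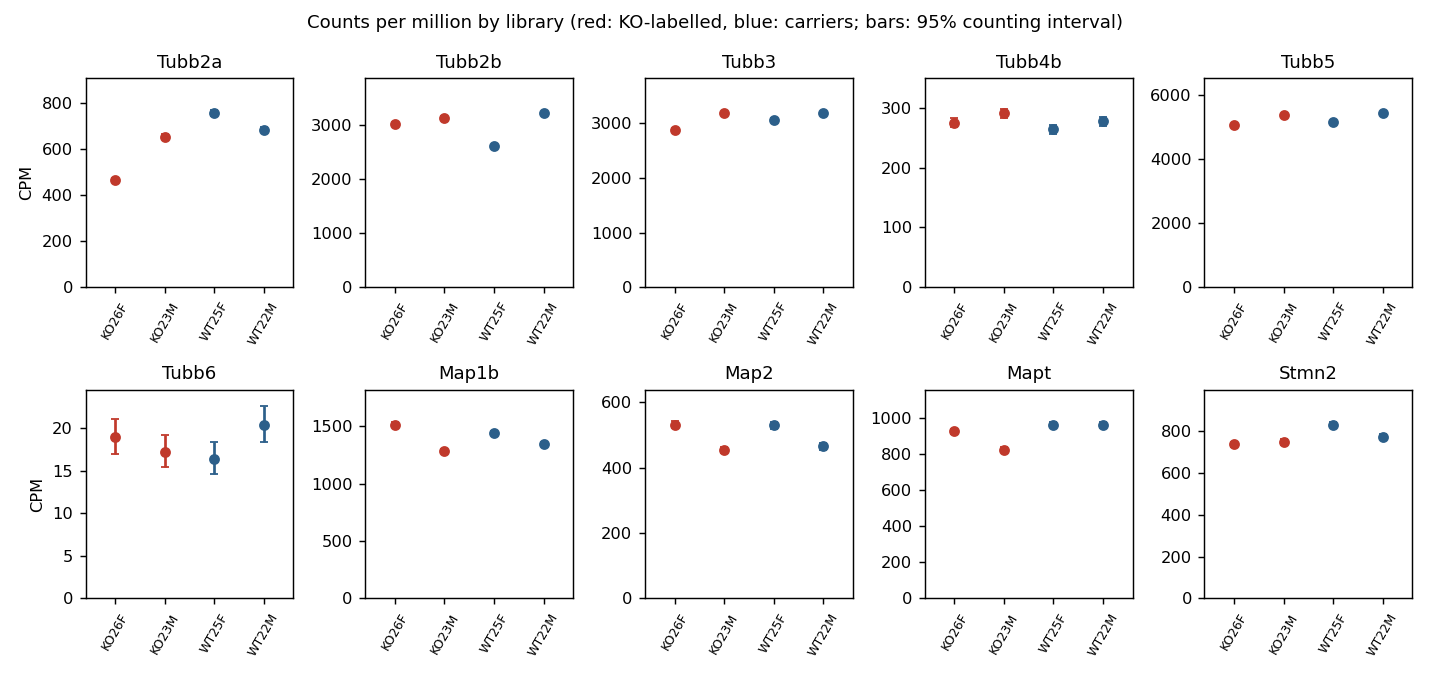
Each panel plots 1 gene, with CPM on a vertical axis that starts at 0 and the 4 libraries on the horizontal axis, knockout-labelled in red and carriers in blue; bars are 95% Poisson intervals of the counts. Tubb2a spans 465 to 754 CPM. Map1b and Map2 are higher in both libraries with F in their title than in both with M, and Tubb2b, Tubb3, Tubb4b and Tubb5 the other way round.

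Tubb3 (ENSMUSG00000062380, chromosome 8, 123411424 to 123422015, plus strand), the isotype that marks young neurons, stood at 2879 (KO26F) and 3183 CPM (KO23M) in the knockout-labelled arm and 3061 (WT25F) and 3183 CPM (WT22M) in the carrier arm. KO23M and WT22M were nearly equal and the arms overlapped. The log2 difference, knockout-labelled minus carrier, was -0.04 (SE 0.10, 95% interval -0.24 to 0.15). Tubb5 (ENSMUSG00000001525, chromosome 17, 35833921 to 35838306, minus strand) stood at 5049.7 (KO26F) and 5367 CPM (KO23M) in the knockout-labelled arm and 5139 (WT25F) and 5418 CPM (WT22M) in the carrier arm, so here too KO26F was lowest and WT22M highest. Its log2 difference was -0.02 (SE 0.09, interval -0.21 to 0.17). Both differences were smaller than the SD of the knockout-labelled arm (215 CPM for Tubb3 and 224 CPM for Tubb5, n = 2).

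Tubb2a (ENSMUSG00000058672) had the widest spread of the 10. Its levels were 465 CPM in KO26F (Poisson interval of the count, 455 to 475), 652 CPM in KO23M, 754 CPM in WT25F and 683 CPM in WT22M. Both knockout-labelled libraries lay below both carriers, but KO23M was closer to WT22M than to KO26F. The arms averaged 558 ± 132 and 718 ± 49.9 CPM (SD, n = 2 each), a log2 difference of -0.36 (SE 0.16, interval -0.73 to 0.01, edgeR adjusted p = 0.9997). Without KO23M the difference was -0.65 and passed (edgeR adjusted p = 0.000268, with 0.677% of all genes called in that fit and KO26F assumed to vary like the carriers). Without KO26F it was -0.12 and did not pass. Of the fits run, Tubb2a was called in the one without KO23M and in no other.

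The highest Tubb2a level was 1.62 times the lowest. Of 693 genes with a mean of at least 250 CPM, 6 (0.866%) had a wider ratio, and the median ratio was 1.12. Among 14 tested genes within 1 Mb of the pair, none was called in either comparison (edgeR). Over all genes, 0.0615% were called between the arms and 0.714% between WT22M and WT25F. None of the 14 was both lowest in KO26F and highest in WT25F, as 6.08% of all genes were. With 14 genes at such shares, none is a description and not a result about the region.

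Tubb2b (ENSMUSG00000045136) stood at 3031 (KO26F) and 3142 CPM (KO23M) in the knockout-labelled arm and 2621 (WT25F) and 3228 CPM (WT22M) in the carrier arm. WT25F was low and the other 3 lay closer together, whereas Tubb2a was highest in WT25F. The log2 difference between the arms was 0.07 (SE 0.11, interval -0.15 to 0.29). WT25F was also the library with the most diencephalon marker RNA (85.6 CPM summed), and the part of this in the Tubb2b value was not tested.

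Because the sequences in capitals separate only some of the reads of Tubb2a and Tubb2b, their counts were also summed, an alternative chosen after the values were seen. The sum was 3496 (KO26F) and 3794 CPM (KO23M) in the knockout-labelled arm and 3374 (WT25F) and 3911 CPM (WT22M) in the carrier arm. The arms averaged 3645 ± 210 and 3643 ± 379 CPM (SD, n = 2 each) and an exact two-sided permutation test gave p = 1.0. Tubb2a made up 13.3% of the pair's counts in KO26F (95% Wilson interval 13.04 to 13.57), 17.2% in KO23M, 22.3% for WT25F and 17.5% for WT22M. The share was lower in both knockout-labelled libraries, with KO23M and WT22M close to each other. The exact permutation p was 0.333, the smallest that 2 against 2 libraries can give. Intervals of counts and shares cover counting error only.

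**Figure D4:**
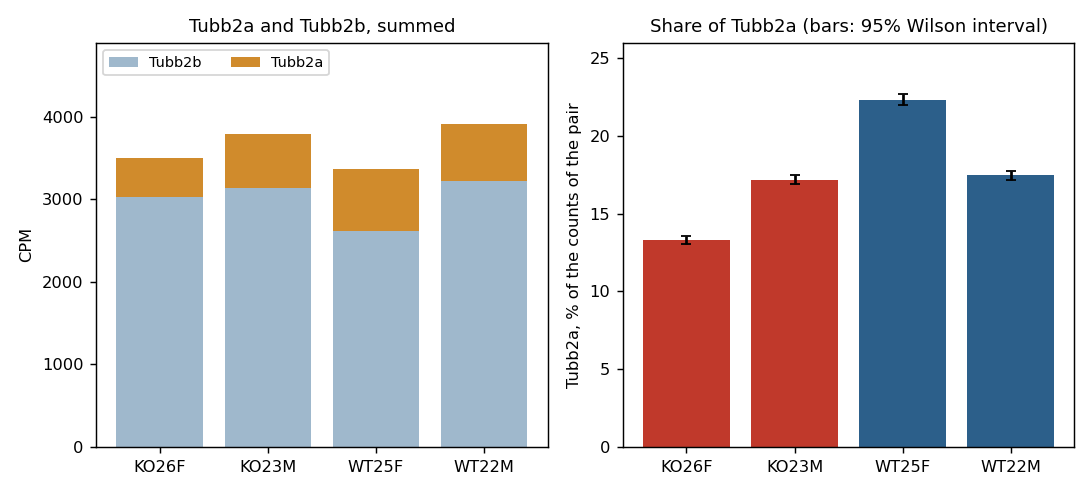
On the left, stacked bars give the CPM of Tubb2b and Tubb2a in each library; on the right, bars give the percentage of the pair's counts assigned to Tubb2a, with 95% Wilson intervals. The sum lies between 3374 and 3911 CPM in the 4 libraries, and the Tubb2a share runs from 13.3% in KO26F to 22.3% in WT25F.

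Of the minor isotypes among the 10, neither Tubb4b nor Tubb6 separated the arms. Tubb4b (ENSMUSG00000036752, chromosome 2, 25222160 to 25224702, minus strand) stood at 275 (KO26F) and 291 CPM (KO23M) in the knockout-labelled arm and 264 (WT25F) and 277 CPM (WT22M) in the carrier arm, a log2 difference of 0.06 (SE 0.10, interval -0.15 to 0.27). Tubb6 (ENSMUSG00000001473) stood at 18.9 (KO26F) and 17.2 CPM (KO23M) in the knockout-labelled arm and 16.4 (WT25F) and 20.4 CPM (WT22M) in the carrier arm, with both carriers outside the range of the knockout-labelled pair. Its log2 difference was -0.03 (SE 0.16, interval -0.36 to 0.30), the least precise after that of Tubb2a, on 294 to 363 counts per library.

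Mapt (ENSMUSG00000018411, chromosome 11, 104231390 to 104332090, plus strand) stood at 925 (KO26F) and 823 CPM (KO23M) in the knockout-labelled arm and 963 (WT25F) and 961 CPM (WT22M) in the carrier arm. The carriers had an SD of 1.42 CPM (n = 2), and both knockout-labelled libraries lay below them. The log2 difference was -0.14 (SE 0.10, interval -0.34 to 0.06, edgeR adjusted p = 0.9997). Stmn2 (ENSMUSG00000027500, chromosome 3, 8509360 to 8561606, plus strand) stood at 736 (KO26F) and 747 CPM (KO23M) in the knockout-labelled arm and 831 (WT25F) and 773 CPM (WT22M) in the carrier arm. Again both knockout-labelled libraries were lower, here with the carriers farther apart (802 ± 41.1 CPM) than the knockout-labelled pair (742 ± 8.23 CPM, SD, n = 2 each). The log2 difference was -0.11 (SE 0.10, interval -0.32 to 0.09, edgeR adjusted p = 0.9997).

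Tubb2a, Mapt and Stmn2 were thus the 3 of 10 genes whose arms did not overlap, all of them lower. Over all genes tested, 27.0% had arms that did not overlap in either direction and 13.4% were lower in this way; with 10 genes, 3 lower and 0 higher is a description and not a result about them. Gap43, a growth cone protein and 1 of the 9 neuronal markers, had a log2 difference of -0.19 and Bcl11b, a neuronal transcription factor, of 0.19, and neither passed.

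Map1b and Map2 overlapped between the arms. Map1b (ENSMUSG00000052727, chromosome 13, 99421446 to 99516540, minus strand) stood at 1514 (KO26F) and 1443 CPM (WT25F) in the F libraries and at 1287 (KO23M) and 1345 CPM (WT22M) in the M libraries. Map2 (ENSMUSG00000015222, chromosome 1, 66175273 to 66442583, plus strand) stood at 531 (KO26F) and 529 CPM (WT25F) in the F libraries and at 453 (KO23M) and 465 CPM (WT22M) in the M libraries. Both genes were higher in the libraries with F in their title, 1 from each arm, whereas Tubb2b, Tubb3, Tubb4b and Tubb5 were higher in both M libraries than in both F libraries. That makes 6 of 10 genes whose F and M libraries did not overlap, beside 48.2% of all genes tested (29.6% higher in F and 18.6% higher in M); differences between the letters were not tested. The log2 differences between the arms were 0.0017 for Map1b (SE 0.10, interval -0.20 to 0.21) and -0.02 for Map2 (SE 0.10, interval -0.23 to 0.20). Of the 10 lists of other microtubule genes described further on, 6 had a summed CPM that was higher in both F libraries than in both M libraries. For 0 it was the reverse, and 4 overlapped. No share for sums of other genes was computed, so these counts are a description and not a result about microtubule genes.

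WT22M against WT25F compares 2 libraries, not 2 genotypes, with the spread taken from the knockout-labelled pair. None of the 10 genes passed edgeR's test, in which 116 of all genes did (0.714%). None had an unadjusted p under 0.05, against 793 of all genes, and DESeq2 (0.203% of all genes called) called none of the 10. The largest differences were those of Tubb6, 0.35 on the log2 scale (interval -0.10 to 0.80), and Tubb2b, 0.33 (interval -0.02 to 0.68, edgeR adjusted p = 0.998). The other 8 lay between -0.16 (Map2) and 0.11 (Tubb5), and the median of the 10 was 0.06. For 9 of the 10 genes these intervals were wider than those between the arms, Tubb2a being the exception.

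**Figure D5:**
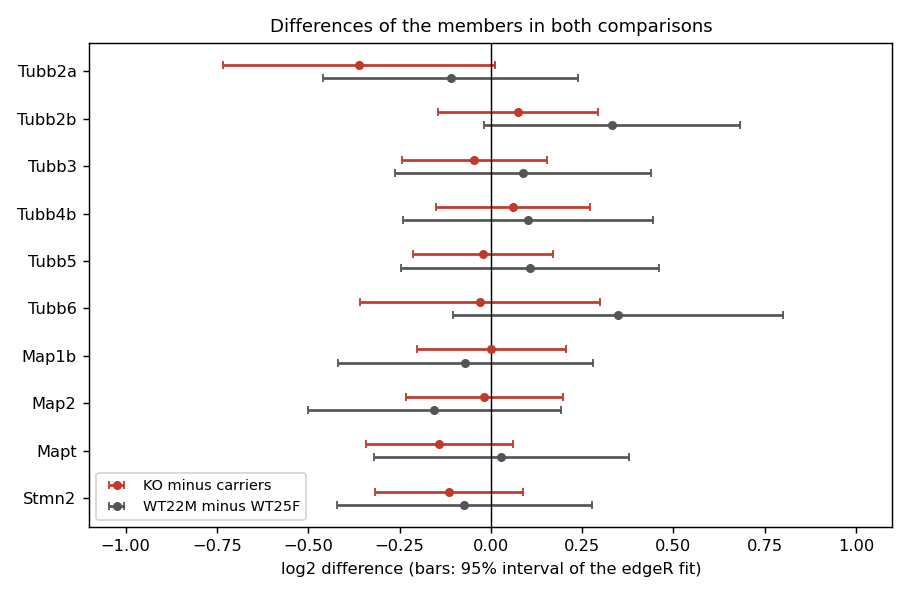
Points give the log2 difference of each gene, knockout-labelled minus carriers in red and WT22M minus WT25F in grey, and bars the 95% interval of the edgeR fit; the vertical line is 0. All 20 intervals reach 0, and the red interval of Tubb2a (-0.73 to 0.01) reaches it only just.

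The authors' deposited tables set each of the other libraries against WT25F, so they share that control and are not independent. In the authors' deposited table of KO26F, 7 of the 10 genes had an adjusted p under 0.05 (13.7% of all genes, 50.8% of the 693 genes of at least 250 CPM). In those of KO23M and WT22M it was 9 of 10 each, beside 22.1% and 22.4% of all genes and 70.6% and 66.8% of the 693. No member reached the mark of significance in the authors' deposited tables, which also asks for a log2 ratio of at least 1 in size and was given to 1.96%, 2.9% and 3.62% of all genes (KO26F, KO23M and WT22M). Their log2 ratios for Tubb2a were -0.70 in the authors' deposited table of KO26F, -0.21 in that of KO23M and -0.14 in that of WT22M. For Tubb2b the authors' deposited tables give 0.21, 0.26 and 0.30 in the same order, so each library stood above WT25F whatever its genotype label. With 1 library on each side, these p-values compare libraries and not conditions.

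Other genes of the microtubule system were followed in 10 lists of 157 genes, of which 153 were tested. None passed between the arms (edgeR), and DESeq2 and limma voom called none either. In edgeR 3 had an unadjusted p under 0.05, beside 464 of all 16252 genes. On all libraries the log2 difference was 0.22 for Mid1 and -0.31 for Mzt1. Without WT22M, which leaves WT25F alone in its arm, it was 1.08 for Mid1 and -0.64 for Mzt1. Of the 153 genes, 69 lay on the higher side and 84 on the lower, with a median log2 difference of -0.02. The nearest to a difference was Cdk5, a kinase that phosphorylates tau, with 83.3 (KO26F) and 93.5 CPM (KO23M) in the knockout-labelled arm and 101 (WT25F) and 111 CPM (WT22M) in the carrier arm. Both knockout-labelled libraries lay below both carriers (log2 difference -0.27, SE 0.11, edgeR adjusted p = 0.9997). With the title letter as a block Cdk5 passed (edgeR adjusted p = 0.0446), in a fit that called 0.757% of all genes.

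All 3 tested other stathmins lay on the lower side, as Stmn2 did, and none passed. With 3 genes this is a description, and the median over all genes tested was 0.0020. Stmn3 stood at 402 (KO26F) and 454 CPM (KO23M) in the knockout-labelled arm and 483 (WT25F) and 468 CPM (WT22M) in the carrier arm (log2 difference -0.15, SE 0.10). Stmn4 had a difference of -0.09 (SE 0.10). Stmn1, the stathmin found in most dividing cells, had a difference of -0.02 (SE 0.10), and its arms overlapped. Tubb4a had a difference of -0.09, with 360 and 366 CPM in the knockout-labelled libraries and 386 in both carriers. Tubb1, the isotype of blood platelets, was near the floor of detection, with 14 and 15 counts in the knockout-labelled libraries and 6 and 5 in the carriers (edgeR adjusted p = 0.9997).

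Of 23 tested structural microtubule-associated proteins outside the 10, 11 lay on the higher side and 12 on the lower. Map6, which protects microtubules from cold, had 212 (KO26F) and 193 CPM (KO23M) in the knockout-labelled arm and 252 (WT25F) and 209 CPM (WT22M) in the carrier arm (log2 difference -0.19). Mtcl1, a crosslinker, and Prc1, a spindle midzone protein, had differences of 0.19 each. Among 18 gamma-tubulin and nucleation genes 10 lay on the higher side, and the smallest p was that of the spindle assembly factor Tpx2 (log2 difference 0.22, edgeR adjusted p = 0.9997). Tpx2 stood at 118 (KO26F) and 97.9 CPM (KO23M) in the knockout-labelled arm and 95.9 (WT25F) and 88.4 CPM (WT22M) in the carrier arm.

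The lists of enzymes and transport proteins showed no common direction. Tubulin folding genes split into 8 higher and 13 lower of 21, with Arl2, a GTPase of the folding pathway, at -0.16. End-binding proteins and lissencephaly factors split into 9 and 13 of 22, with Nav2, a navigator protein that follows growing microtubule ends, at -0.18. Severing enzymes split into 4 and 4, tubulin modification enzymes into 11 and 9, tau kinases and phosphatases into 7 and 10, and the kinesin and dynein genes into 8 and 10. None of these genes passed (edgeR). Between WT22M and WT25F 2 of the 153 passed: Mid1, a microtubule-bound ubiquitin ligase (log2 difference 1.41, edgeR adjusted p = 5.22e-06), and Mzt1, a partner of gamma-tubulin (-0.74, edgeR adjusted p = 0.00554). DESeq2 called neither, nor did the fits with no filter or with the spread of the 2 arms, and limma voom called Mid1 but not Mzt1.

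The genes most like a member in their profile were found by the root-mean-square difference of centred log2 CPM over the 4 libraries, among 6524 genes. For Tubb3 these were Fbxo44 (0.0038), Fbxl19 (0.0042) and Mgat1 (0.0049). For Map1b they were Macf1 (0.0058), which links actin to microtubules, Prpf4 (0.0066) and Magi1 (0.0068). For Stmn2 they were Tmem9b (0.0047), Vps45 (0.0086) and Panx2 (0.010). With only 4 libraries close profiles arise easily, and they are given as a description.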

How the data were processed

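RNA-seq counts of 4 libraries were analysed. Bowtie2 2.2.3, TopHat2 2.0.12 and HTSeq 0.6.0 and the build mm9 are named in the submitters' processing notes; strand and multi-mapping settings: not given in the sources used here. Per the file headers, 3 pairwise tables with WT25F as the reference hold raw counts per gene as the authors deposited them. The authors also deposited normalized CPM, a log2 ratio (fold change) and a p-value with its adjusted value, computed with an unnamed test. The tables were joined on the gene identifier, with 0 counts for genes that a table does not list. Positions match GRCm38: 22039 of 22084 identifiers are in GENCODE vM21, 20222 with identical positions, including 9 of the 10 genes but not Tubb6.

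CPM were computed from the counts and joined totals, and values per kilobase use the union of annotated exons. The main test over all genes was edgeR's quasi-likelihood test, version 4.0.16 (TMM, robust fit, Benjamini-Hochberg threshold 0.05) under R 4.3.3, knockout-labelled against carriers, and WT22M against WT25F in a model with 3 groups. The tools and settings tried as alternatives were DESeq2 1.42.0, limma 3.58.1 with voom, RLE size factors, no filter, a minimum of 1 CPM in 2 libraries, only genes outside X and Y, pseudogene copies added to the parent gene, the title letter as a block, and each library left out. The scripts were tested on simulated counts with 200 of 16252 genes changed. Between the arms 38.8% of 1.5-fold, 64.2% of 2-fold and 95.5% of 4-fold changes were recovered, and 27 unchanged genes were called. For WT22M against WT25F recovery was lower at each fold and more unchanged genes were called. A gene that was not called is therefore not shown to be unchanged, and a call does not by itself show a change. A pseudocount alternative did not apply. The genes and lists were chosen with earlier results of these data known. Named are all 10 genes, up to 3 genes of the smallest p per list, the leading beta-tubulin copies and 3 genes of like profile for Tubb3, Map1b and Stmn2; Gap43, Bcl11b, Emx1, Dlx2, Nhlh1, Mid1, Mzt1 and pseudogenes with shared windows were named after their values were seen.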

Additional observations from a re-analysis of the deposited data

Results flagged for a closer look

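For Tubb2b and Map1b, the knockout-labelled library lay on opposite sides of the carrier in the pair of libraries with F in their title and in the pair with M. For Tubb2b the log2 ratio was 0.21 in the F pair (KO26F to WT25F) and -0.04 in the M pair (KO23M to WT22M). For Map1b it was 0.07 in the F pair and -0.06 in the M pair. The 95% counting intervals of these 4 ratios exclude 0, and they cover counting error only. At such high counts they exclude 0 even for a ratio as small as -0.04. The rule was applied to the members only, so no share over all genes stands beside it. Tubb6 (0.21 and -0.24) and Map2 (0.0053 and -0.04) also had opposite signs, with an interval that includes 0 for at least 1 ratio. Each letter has 1 library per arm, so the difference between the letters was not tested.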

How the results depend on the processing

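Between the arms, 0 of the 10 genes were called under each alternative run except without KO23M, where it was 1 (Tubb2a), so leaving out a library gave 0 to 1; between WT22M and WT25F it was 0 under each tested alternative, and leaving out a library gave values with no test. Tubb2a and Tubb2b summed left 9 units in place of 10. Leaving out 1 library also moved the number of genes called over all genes from 10 to between 42 and 110, the title letter as a replicate block to 123 and, for WT22M against WT25F, DESeq2 moved it from 116 to 33 and the spread of the fit with 2 arms or no filter to 0. In the replicate block fit 0 of the 10 genes were called, with Mapt at -0.14 (edgeR p = 0.012, adjusted p = 0.446) and Stmn2 at -0.11 (p = 0.043, adjusted p = 0.707); deviations of same-letter libraries correlated at 0.226 over 2 pairs, and the labels do not say that the letter pairs them. Map1b, at 0.0017, turned to -0.00021 with RLE size factors and with DESeq2, -0.0010 with voom, -0.0020 without a filter and -0.00096 in the block fit. Tubb2b summed with Tubb2a, chosen after seeing the data, gave -0.0023. Of 40 log2 differences with a library left out, 11 changed sign. The ranges were -0.142 to 0.0438 for Tubb3, -0.0896 to 0.0398 for Tubb5, -0.0990 to 0.0938 for Map1b and -0.0026 to 0.121 for Tubb4b. They were -0.199 to 0.154 for Tubb6, -0.116 to 0.0715 for Map2 and -0.0873 to 0.249 for Tubb2b. Tubb2a (-0.65 to -0.12), Mapt (-0.21 to -0.08) and Stmn2 (-0.15 to -0.08) stayed lower. Their arms did not overlap, which all but fixes that sign when 1 library is left out, so it says nothing of their stability. Between WT22M and WT25F all 89 values under other settings kept their sign; a knockout-labelled library left out is not part of that difference, so it says nothing of its stability. The cause of these changes was not tested. Counting error was widest for Tubb6 (294 to 363 counts per library) and Tubb1 (5 to 15).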
